A study of Mus musculus with 48 samples.

Results

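The actin cytoskeleton was represented by 10 genes: the actin genes Actg1, Actb and Acta2, the actin-binding genes Pfn1, Cfl1, Tpm1, Actn1, Actn4 and Vcl, and Srf, which encodes serum response factor. Actg1 was included because its translation efficiency (TE) was already known to be high at night in these kidney libraries, and the other 9 were chosen by function to see whether that pattern extended to them. The values that singled out Actg1 are therefore given as a description without a test. All 10 genes had 1 row in every file, among 12423 genes present in both assays, and all passed the minimum median level of 0.5 RPKM (reads per kilobase of coding sequence, scaled to library size) that left 11863 genes for testing.

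The kidneys came from male wild-type C57BL/6JRj mice aged 11 to 12 weeks, entrained to cycles of 12 h light and 12 h darkness and given no treatment. Zeitgeber time ZT00 is lights-on and ZT12 lights-off. At each of 12 timepoints spaced 2 h apart, 2 replicate pools were made, each from the lysates of 2 animals, and every pool gave 1 RNA-seq and 1 RPF-seq library, 48 libraries in all. RPF-seq sequences the mRNA fragments protected by ribosomes after lysis in the presence of cycloheximide, and TE was the RPF RPKM divided by the RNA RPKM of the same pool.

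Actin monomers assemble into polar filaments that carry the brush border, the cell cortex and the adhesion sites of kidney epithelia, the foot processes of podocytes and the contractile apparatus of vascular smooth muscle. Profilin delivers monomers to growing filaments, cofilin severs old ones, tropomyosin coats them, the alpha-actinins crosslink them and vinculin ties them to adhesion plaques. Serum response factor is a transcription factor that binds CArG boxes in the promoters of many actin genes, and its cofactors of the myocardin-related family are held back by free actin monomers. In this way the amount of unpolymerised actin feeds back on the transcription of its own genes.

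On GRCm38, in the GENCODE vM21 annotation, the cytoplasmic actin genes lie at chr11:120345690-120348542 (Actg1) and chr5:142903115-142906754 (Actb), both on the minus strand. Their coding sequences have the same length, 1125 bases, and differ at 128 positions (88.62% identity), with a longest identical run of 62 bases. The start of both is shown because short reads have to be assigned to either gene by such differences. Bases 1 to 60 of each coding sequence are printed 5′ to 3′, and capitals mark the 9 bases that differ.
Actg1: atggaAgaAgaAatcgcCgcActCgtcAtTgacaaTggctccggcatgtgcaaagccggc
Actb: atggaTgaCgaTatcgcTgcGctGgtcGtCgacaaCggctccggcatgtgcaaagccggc

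Cut into windows of 30 bases, close to the length of a footprint, the coding sequence of Actg1 gave 1096 windows, and 100.0% of them also occurred in a transcript of another gene. Most of that sharing was with transcripts not annotated as protein-coding. Apart from Actb, 31 other genes shared a window through such a transcript, and 0 of these genes had a row in the files. Some of them, such as Gm12715, matched most windows of Actg1 (94.0%), and others, such as Gm15725, matched more windows of Actb (288) than of Actg1 (52). Windows shared with a protein-coding transcript of another gene, untranslated regions included, made up 11.2% for Actg1 and 37.5% for Actb. For Actb, 288 windows lay in protein-coding transcripts of Lrrc58. The sharing between Actg1 and Actb was 10.0% of the windows of either. Cfl1 shared 49.8% of its windows with other transcripts and 0.0% with protein-coding transcripts of other genes, whereas Vcl and Srf shared 0.0% with any. For the other 5 genes the share was at most 3.25%. How reads matching several places were assigned is not given in the sources used here, so the levels of Actg1, Actb and Cfl1 are uncertain to that extent, and the part of shared reads in the results was not tested.

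Promoters from 250 bases before to 50 bases after the gene start were searched on both strands for the CArG box, the binding sequence of Srf. A RefSeq promoter on GRCm38.p6 was matched for 9 of the 10 genes (Actb was not matched), and 3 of the 9 held a perfect box. Of all 27025 genes in the table, 1.81% held one in a promoter, and of its 32851 promoters 1.63%. The matches are shown because they are the sequence that Srf is known to bind, with the box in capitals and 10 bases on either side, each on the strand of its gene.
Actg1, chr11:120348566-120348595, minus strand, box beginning 90 bases before the start: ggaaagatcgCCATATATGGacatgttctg
Vcl, chr14:20929161-20929190, plus strand, box beginning 227 bases before the start: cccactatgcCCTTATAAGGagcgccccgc
Srf, chr17:46556225-46556254, minus strand, box beginning 82 bases before the start: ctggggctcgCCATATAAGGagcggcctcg
Srf, chr17:46556205-46556234, minus strand, box beginning 62 bases before the start: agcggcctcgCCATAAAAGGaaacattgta

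Srf thus carried a pair of boxes in its own promoter. These matches describe the letters of the promoter and say nothing about occupancy in kidney.

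The size of the libraries was read from the steps between low RPKM values, which correspond to single reads, and it includes the authors' normalisation of libraries. To the nearest 10000, it came to 9850000 to 33570000 reads in RNA-seq and 15570000 to 35010000 in RPF-seq. Libraries of the night were smaller by this measure, with medians of 12770000 reads against 17450000 by day in RNA-seq and 19590000 against 26090000 in RPF-seq. Depth and normalisation cannot be told apart in these sizes. Even so, every value of Actg1 rested on at least 5914 reads, and the thinnest measurement was Srf in RPF-seq, with 78 to 241 reads per library and a counting error of 11.3% at the lowest. The replicates at ZT10 and ZT12 stood furthest apart in RNA-seq, with the median of the 10 genes 0.36 and 0.31 lower on the log2 scale in replicate 2, and those at ZT04 and ZT16 stood furthest apart in RPF-seq. Markers of proximal tubule, thick ascending limb, collecting duct, podocytes and endothelium were all present as the label kidney implies, and 0 of 4 skeletal muscle markers had a row in the files. In whole tissue, fewer cells of a type and less RNA per cell cannot be told apart.

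Over the day as a whole, Actb, the gene of cytoplasmic beta-actin, was the most abundant of the 10 at both levels, with a mean of 1224 ± 159 RPKM in RNA-seq and 2071 ± 277 RPKM in RPF-seq (SD, n = 24). Actg1, which encodes cytoplasmic gamma-actin, followed with 561 ± 61.3 and 1438 ± 257 RPKM, and its RPF level lay at the 99.4 percentile of all genes tested. The monomer-binding genes came next, Pfn1 with 232 ± 28.6 and 509 ± 44.0 RPKM and Cfl1 with 174 ± 19.2 and 204 ± 21.3 RPKM. Of the filament genes, Actn4 reached 126 ± 21.0 and 171 ± 12.5 RPKM and Tpm1 63.5 ± 5.78 and 89.8 ± 14.2 RPKM. Vcl, Acta2 and Actn1 had RNA levels of 37.2 ± 2.22, 33.2 ± 8.40 and 16.02 ± 1.92 RPKM, and Srf was the lowest with 12.5 ± 1.92 RPKM.

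Ranked within each assay, every neighbouring pair differed in its mean log2 level (paired permutation test, 18 pairs over both assays, adjusted p of at most 0.00746). The ranking was taken from the same pools, so the direction of each difference was given beforehand. Values of neighbours could still overlap. The closest pair was Acta2 and Vcl, where Vcl was higher in 20 of 24 pools in RNA-seq but Acta2 was higher in 18 of 24 pools in RPF-seq. Actn1 exceeded Srf 1.28-fold in RNA-seq and 4.85-fold in RPF-seq. This gap at the footprint level followed from the TE of Srf, which averaged 0.343 ± 0.0590 (SD, n = 24) and ranked at the 7.28 percentile of all genes. All other members had a mean TE above 1, from 1.18 ± 0.176 for Cfl1 to 2.60 ± 0.569 for Actg1, the latter at the 98.4 percentile.

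**Figure D1:**
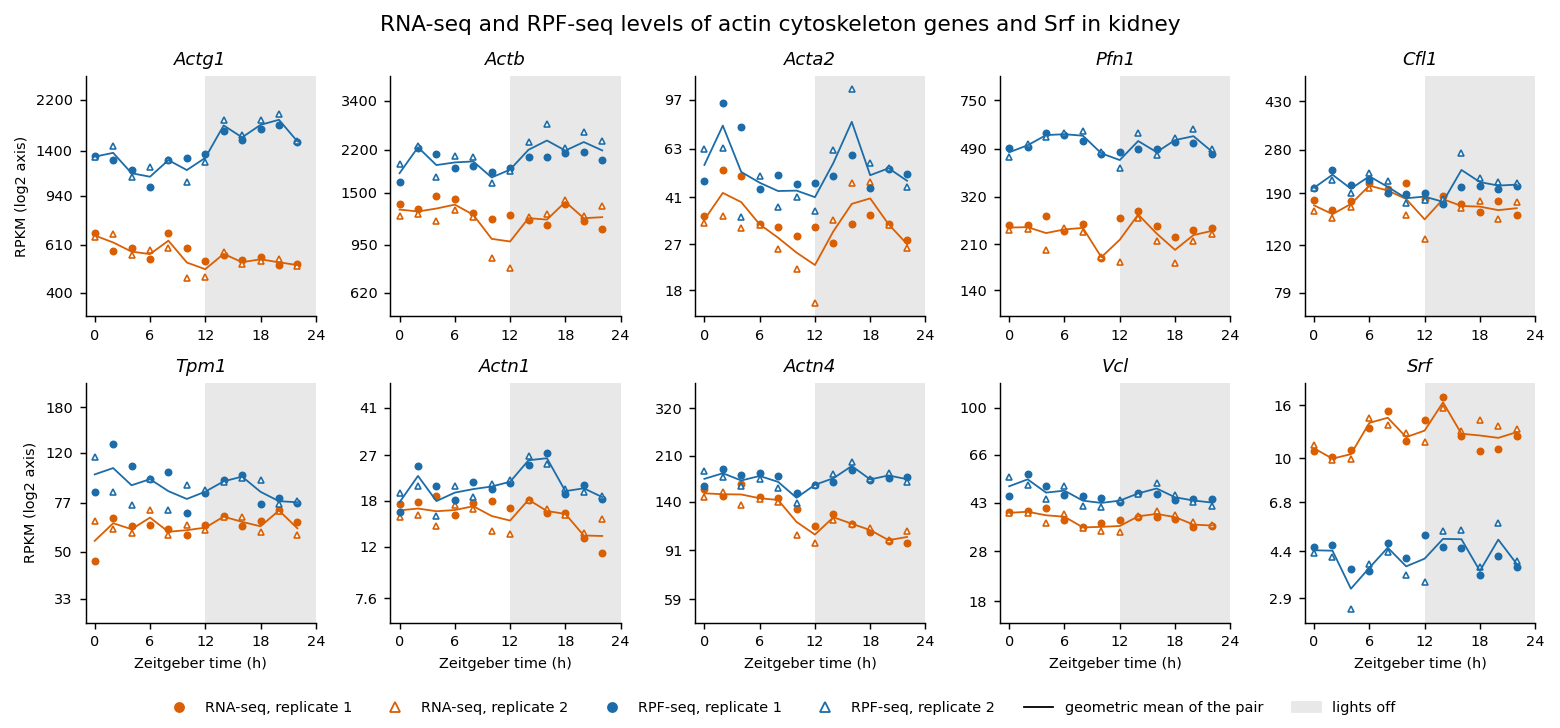
RPKM (log2 axis, the same fold range in every panel) of the 10 genes in RNA-seq (orange) and RPF-seq (blue) against Zeitgeber time in hours, with circles for replicate 1, triangles for replicate 2, a line through the geometric mean of each pair and grey for lights off. The RPF values of Actg1 step up between ZT12 and ZT14 and stay above all day pools (ZT02 to ZT10) until ZT22. Its RNA values also rise over that step, but those of the night stay within the range of the day pools. The RNA values of Actn4 fall from the light to the dark phase while its RPF values stay level.

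The pattern that the other genes were set against was that of Actg1. In RNA-seq its 10 day pools (ZT02 to ZT10) ranged from 457 to 676 RPKM with a median of 589, and its 10 night pools (ZT14 to ZT22) from 504 to 570 RPKM with a median of 530. The groups overlapped, and 0 night pools stood above all day pools. In RPF-seq the day pools ran from 1019 to 1467 RPKM (median 1255) and the night pools from 1513 to 1933 RPKM (median 1683), so that the groups did not overlap. TE was 1.89 to 2.32 by day (median 2.13) and 2.90 to 3.61 at night (median 3.12), again without overlap. Actg1 was chosen for this pattern. How many of all genes tested separate in this way was not counted, which also limits the pool counts of the members below. The pools at ZT12, taken at lights-off, lay between the groups with 2.59 and 2.77, and those at ZT00, taken at lights-on, had returned to 1.98 and 2.03.

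A 24-h cosine fitted to log2 TE of Actg1 gave a peak-to-trough fold of 1.74 with a peak at ZT17.4 ± 0.382 h (SE). Each replicate series alone gave 1.72-fold at ZT17.6 and 1.77-fold at ZT17.1, a description from the same pools in which Actg1 was chosen. The RPF rhythm was 1.54-fold with a peak at ZT18.1 ± 0.4659 h, and the RNA rhythm 1.17-fold with a peak at ZT3.21 ± 1.30 h. Expressed as a night minus day difference on the log2 scale, TE was 0.60 higher, RPF 0.47 higher and the RNA difference was -0.13. Most of the TE difference of this gene thus lay in its footprints.

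**Figure D2:**
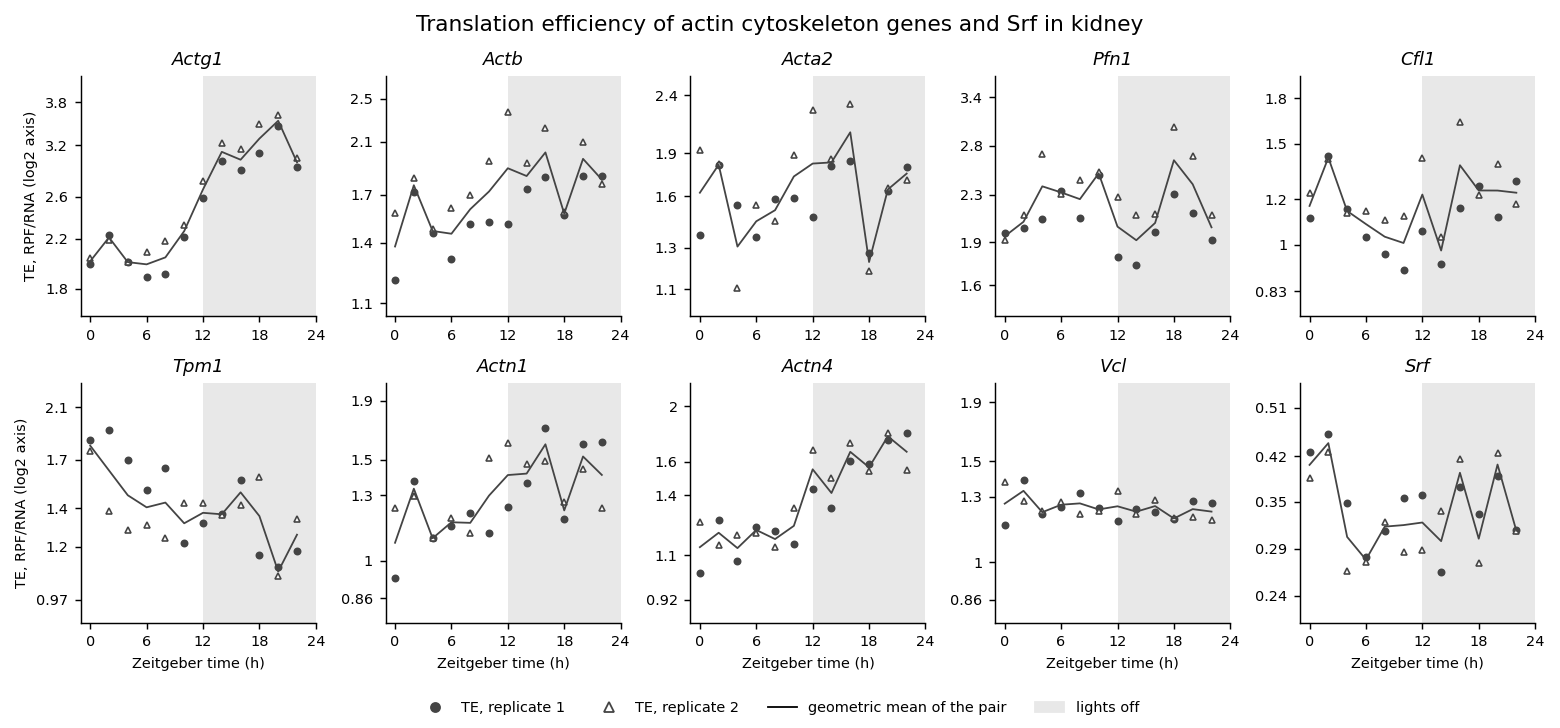
TE (RPF divided by RNA of the same pool, log2 axis, the same fold range in every panel) of the 10 genes against Zeitgeber time in hours, with circles for replicate 1, triangles for replicate 2, a line through the geometric mean of each pair and grey for lights off. Actg1 moves from about 2.13 by day to 3.12 at night and Actn4 from 1.20 to 1.60 (medians), whereas Vcl stays between 1.16 and 1.39 in all 24 pools.

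Among the other 9 genes, 2 (22.2%) had a TE that was higher at night, Actn4 and Actn1, and 0 had a TE that was lower at night (limma on log2 values, Benjamini-Hochberg over 11863 genes, adjusted p under 0.05). Over all genes tested, 5.59% were higher and 3.96% lower at night by the same rule. As a 24-h rhythm of TE, 1 of the 9 (11.1%) was called, Actn4, against 17.1% of all genes, and with the additional requirement of a 1.5-fold peak-to-trough difference 0 of 9 against 3.74%. At an unadjusted p under 0.05, 3 of the 9 had a TE rhythm. The share of all genes at that unadjusted threshold was not counted, here or for the unadjusted counts below. Such counts therefore cannot be set against all genes.

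Actn4, the alpha-actinin that crosslinks filaments in non-muscle cells and in podocyte foot processes, had day TE values of 1.08 to 1.33 (median 1.20) and night values of 1.33 to 1.80 (median 1.60). Of its night pools, 9 of 10 exceeded every day pool, and the lowest night value (1.327, ZT14 replicate 1) fell just short of the highest day value (1.330, ZT10 replicate 2). The night minus day difference was 0.43 on the log2 scale (95% interval 0.32 to 0.55, adjusted p = 7.53e-05), which is 1.35-fold. The fitted 24-h rhythm of TE was 1.48-fold and peaked at ZT17.4 ± 0.604 h (SE, adjusted p = 0.00125). This was the same fitted hour as that of Actg1, and over the 12 timepoint means the log2 TE profiles of the genes correlated with r = 0.933, a description in which both share libraries.

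The levels behind the Actn4 ratio differed from those of Actg1. Its RNA ranged from 104 to 164 RPKM by day (median 144) and from 97.2 to 125 RPKM at night (median 109), with 0 night pools above all day pools. The RNA difference of -0.36 (95% interval -0.49 to -0.22, adjusted p = 0.000322) was the only RNA difference between night and day among the 9 genes, in a background where 16.4% of all genes were lower and 13.0% higher at night and where 1 of the 9 had an unadjusted p under 0.05. RPF of Actn4 was 139 to 186 RPKM by day (median 173) and 166 to 199 RPKM at night (median 174), groups that overlapped and gave a difference of 0.08 (-0.02 to 0.18, adjusted p = 0.296). Its RNA rhythm was 1.42-fold with a peak at ZT4.60 ± 0.682 h (adjusted p = 0.000284), and its RPF rhythm of 1.10-fold did not pass the threshold (adjusted p = 0.211). Since TE contains the RNA value as its divisor, the RNA and TE differences of Actn4 are not independent measurements.

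The podocyte list, of which all 5 markers were present, had a lower median RNA level at night, as did Actn4. Its summed RNA level was 82.1 to 108 RPKM by day (median 99.2) and 77.3 to 95.8 RPKM at night (median 81.2), and its summed RPF level had medians of 165 and 142 RPKM. Other lists also differed, with median RNA sums by day and night of 136 and 119 RPKM for fibroblasts, 254 and 233 RPKM for endothelium and 2916 and 3428 RPKM for the thick ascending limb. None of the podocyte markers was at 0 in any RNA library, and the part of cell content in the Actn4 result was not tested. With either replicate series left out, the fold of the Actn4 TE rhythm remained at 1.47 or 1.51, but with 12 pools in place of 24 the adjusted p was 0.133 or 0.115. Without replicate 1 its RNA rhythm, at 1.38-fold, had an adjusted p of 0.0609.

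Actn1, the other non-muscle alpha-actinin, showed a smaller difference in the same direction. Day TE values ran from 1.09 to 1.51 (median 1.17) and night values from 1.18 to 1.71 (median 1.46), and 3 of 10 night pools stood above all day pools. The difference of 0.24 (95% interval 0.08 to 0.40) had an adjusted p of 0.0472, and this call held in 7 of the 14 settings examined. Its TE rhythm of 1.28-fold, peaking at ZT16.4 ± 1.15 h, missed the threshold (adjusted p = 0.0561). At the footprint level Actn1 was the 1 gene of 9 with a called rhythm, against 30.9% of all genes, with 1.25-fold and a peak at ZT14.2 ± 1.11 h (adjusted p = 0.0301). Its RPF values were highest at ZT14, with 24.8 and 26.8 RPKM, and at ZT16, with 27.5 and 25.0 RPKM, while at ZT18 they were 19.2 and 20.0 RPKM. The RPF call was lost without the ZT04 replicate 2 pool, the one with the lowest value of 15.7 RPKM (adjusted p = 0.0601).

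Actb had a TE of 1.31 to 1.94 by day (median 1.57) and 1.57 to 2.22 at night (median 1.83), with 2 of 10 night pools above all day pools. The TE difference of 0.20 (95% interval 0.04 to 0.35) did not pass the threshold over all genes (adjusted p = 0.0966), and neither did the fitted rhythm of 1.25-fold with a peak at ZT15.8 ± 1.36 h (adjusted p = 0.114). Its RPF values were 1633 to 2267 RPKM by day (median 1984) and 2007 to 2773 RPKM at night (median 2193). The RPF difference of 0.21 (0.06 to 0.35, adjusted p = 0.0429) made Actb the 1 gene of 9 with more footprints at night, where 6.79% of all genes were higher and 8.71% lower. This call held in 7 of 13 settings. It was lost without the ZT04 replicate 2 pool (difference 0.19, adjusted p = 0.0699), and without the pools of replicate 2 at ZT10 and ZT12, in which Actb RNA was only 840 and 769 RPKM (difference 0.18, adjusted p = 0.0721). Without those last pools the TE difference of Actb was 0.23 with an adjusted p of 0.0470. No difference between Actb and Actg1 was tested, because Actg1 had been chosen for its pattern.

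**Figure D3:**
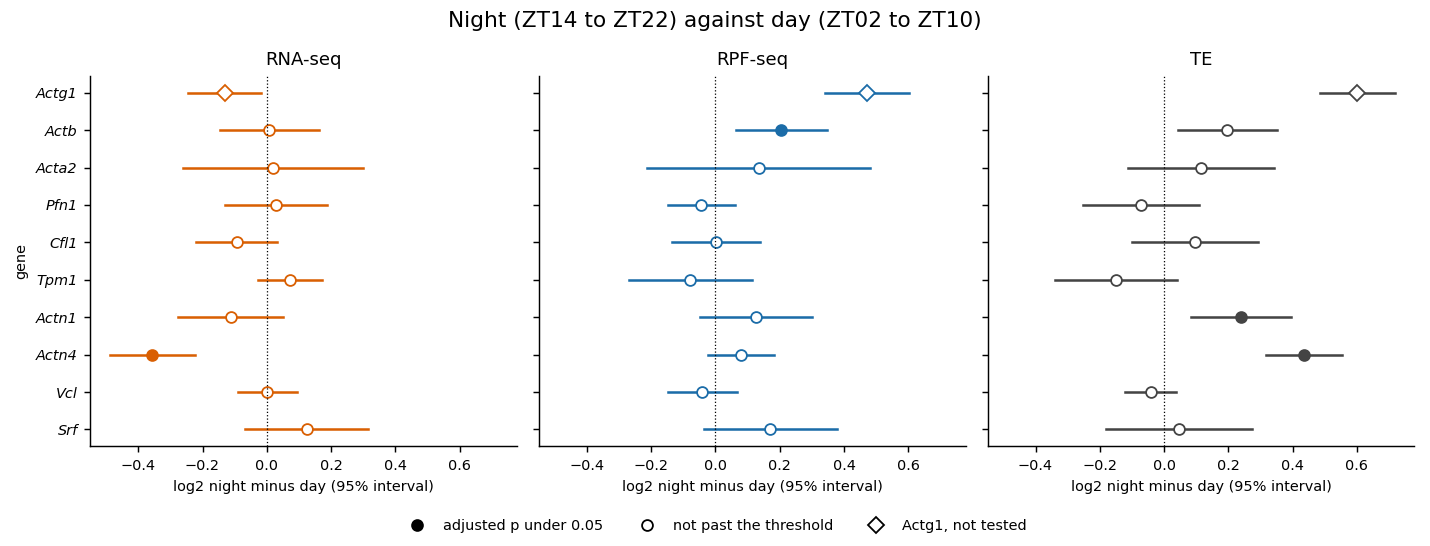
Night (10 pools, ZT14 to ZT22) minus day (10 pools, ZT02 to ZT10) difference on the log2 scale with its 95% interval for each gene in RNA-seq, RPF-seq and TE; filled circles mark an adjusted p under 0.05, open circles no call, and the diamond Actg1, which was not tested. Actg1 lies at 0.60 in TE and 0.47 in RPF-seq, whereas Actn4 lies at 0.43 in TE, 0.08 in RPF-seq and -0.36 in RNA-seq.

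Acta2, the actin of smooth muscle and pericytes, varied more between pools than any other member, with a replicate SD of 0.33 on the log2 scale in RNA-seq and 0.36 in RPF-seq. Its day TE of 1.11 to 1.89 (median 1.56) overlapped with its night TE of 1.19 to 2.31 (median 1.75), and the difference was 0.12 (95% interval -0.11 to 0.34, adjusted p = 0.534). The highest Acta2 footprint levels were 107 RPKM at ZT16 in replicate 2, 94.6 RPKM at ZT02 in replicate 1 and 76.4 RPKM at ZT04 in replicate 1, each well above the other pool of its timepoint, which had 59.6, 63.1 and 34.4 RPKM. Acta2 RNA ran with the summed RNA of the 7 smooth muscle and pericyte markers in part. The pools at ZT02 replicate 1 and ZT04 replicate 1 held ranks 1 and 2 of 24 for both, and ZT10 and ZT12 replicate 2 ranks 23 and 24 for both, but ZT16 replicate 2 ranked 4 for Acta2 and 17 for the markers. By day that sum was 99.2 to 148 RPKM (median 125) and at night 109 to 128 RPKM (median 117). Mylk, Tagln and Smtn, with means of 43.9, 37.6 and 24.8 RPKM, made up most of it, whereas Myh11 averaged 3.54 RPKM. Of the 7 markers 1, Cnn1, reached 0.0 RPKM in at least 1 library. The part of smooth muscle content in the Acta2 levels was not tested.

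The genes of filament turnover showed no called difference in TE. Pfn1, which encodes profilin, had a TE of 2.01 to 2.71 by day (median 2.32) and 1.73 to 3.02 at night (median 2.13), and a difference of -0.07 (95% interval -0.25 to 0.11, adjusted p = 0.639). Cfl1, which encodes the severing protein cofilin, had 0.905 to 1.43 by day (median 1.13) and 0.925 to 1.63 at night (median 1.20), and a difference of 0.10 (-0.10 to 0.29, adjusted p = 0.553). The interval of Pfn1 ended below the differences of both Actn1 and Actn4, and that of Cfl1 reached past the 0.24 of Actn1 but not the 0.43 of Actn4. Those 2 differences have intervals of their own, and no difference between genes was tested. The RNA rhythm of Cfl1 was 1.13-fold and was not called (adjusted p = 0.234), but without the ZT10 and ZT12 replicate 2 pools it was 1.22-fold with an adjusted p of 0.00158, and that of Actn1 then reached 1.23-fold with an adjusted p of 0.0191.

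Tpm1, which encodes a tropomyosin, had its highest TE around lights-on. Its values were 1.84 and 1.76 at ZT00, against 1.10 and 1.07 at ZT20, and in the groups 1.22 to 1.92 by day (median 1.41) and 1.07 to 1.59 at night (median 1.35). The night minus day difference of -0.15 (95% interval -0.34 to 0.04, adjusted p = 0.309) and the rhythm of 1.16-fold with a peak at ZT3.84 ± 2.25 h (adjusted p = 0.410) did not pass the threshold. Replicate 1 alone gave 1.38-fold and replicate 2 alone 1.04-fold.

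Vcl, the gene of the adhesion protein vinculin, had the narrowest fold range of TE among the 10. Its TE lay between 1.16 and 1.39 in all 24 pools with a mean of 1.25 ± 0.0599 (SD), its rhythm was 1.04-fold (adjusted p = 0.698), and the night minus day difference was -0.04 (95% interval -0.12 to 0.04, adjusted p = 0.509). The interval was the narrowest among the 9 genes and ended well below the differences of Actn1 and Actn4, again without a test between genes. RNA and RPF rhythms of Vcl were 1.06-fold and 1.08-fold, below the medians over all genes of 1.20-fold and 1.18-fold, and neither was called.

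Srf itself was rhythmic in RNA-seq. Its RNA was lowest at ZT02, with 10.1 and 9.84 RPKM, and highest at ZT14, with 17.2 and 15.6 RPKM, after a first rise to 15.2 and 13.5 RPKM at ZT08. The fitted rhythm was 1.28-fold with a peak at ZT12.8 ± 1.07 h (adjusted p = 0.0158). Together with Actn4 this made 2 of 9 genes (22.2%) with a called RNA rhythm, against 48.6% of all genes tested, and with the 1.5-fold requirement 0 of 9 against 10.2% (2 of 9 had an unadjusted p under 0.05). Without the 3 pools with high Acta2 (ZT02 and ZT04 replicate 1, ZT16 replicate 2) the rhythm of Srf was 1.26-fold and its adjusted p 0.0580, and with 1 replicate series it was 1.25-fold or 1.36-fold with adjusted p of 0.262 and 0.0505.

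In RPF-seq, Srf ranged from 2.65 to 4.74 RPKM by day (median 4.03) and from 3.57 to 5.65 RPKM at night (median 4.36). The RPF rhythm of 1.18-fold was not called (adjusted p = 0.320), nor was any of the other 8 besides Actn1, and with the 1.5-fold requirement 0 of 9 were called against 7.58% of all genes (2 of 9 had an unadjusted p under 0.05). TE of Srf was 0.265 to 0.460 by day and 0.264 to 0.426 at night, and the difference was 0.05 (95% interval -0.18 to 0.27, adjusted p = 0.821). This interval and that of Acta2 were the widest among the 9 genes.

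**Figure D4:**
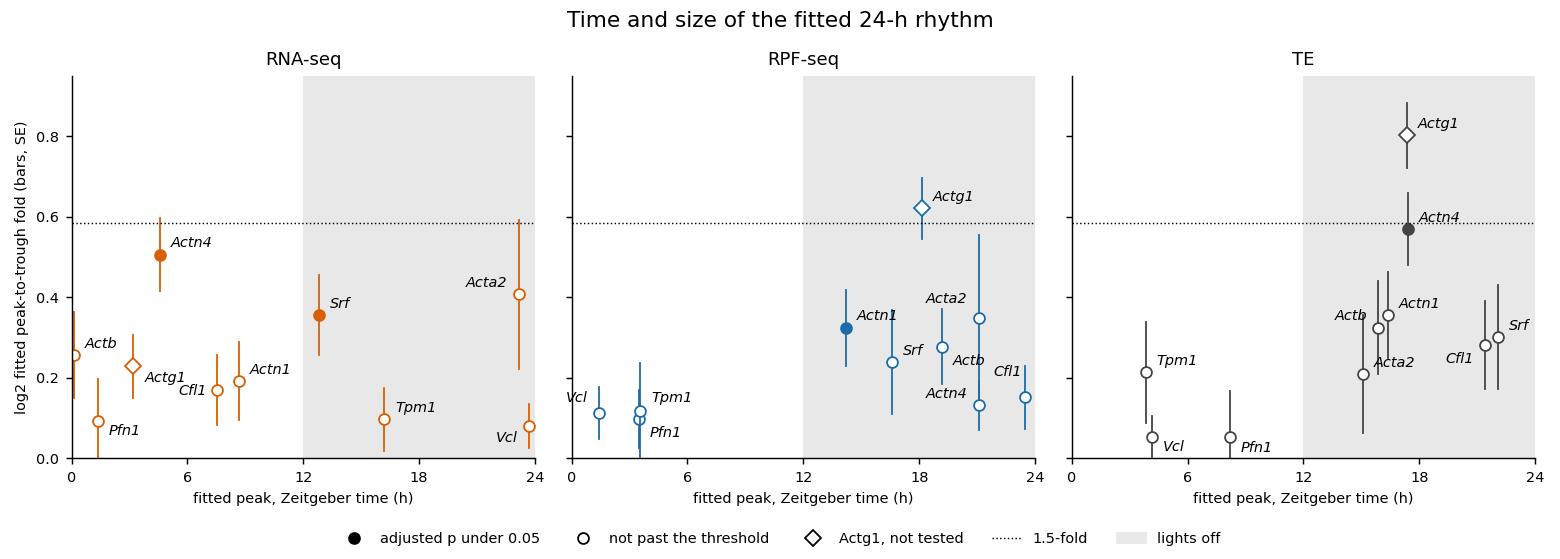
Fitted peak in Zeitgeber time (hours, grey for lights off) against the log2 fitted peak-to-trough fold with its SE for the 10 genes in RNA-seq, RPF-seq and TE; filled circles mark an adjusted p under 0.05, open circles no call, the diamond Actg1, which was not tested, and the dotted line a 1.5-fold difference. The TE peaks of Actg1 (ZT17.4) and Actn4 (ZT17.4) lie side by side, while their RNA peaks lie in the light phase and the RNA peak of Srf at ZT12.8.

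By likeness of profile over the 12 timepoint means, the members fell in the order Actn4 (r = 0.933), Actn1 (0.774), Actb (0.721), Cfl1 (0.279), Acta2 (0.248), Srf (0.0794), Pfn1 (0.0079), Vcl (-0.492) and Tpm1 (-0.643) in their log2 TE against that of Actg1. Of all genes tested, the 5 with the TE profile most like that of Actg1 were Palld (r = 0.976), Ywhab (0.973), Vdac1 (0.968), Fnbp1 (0.965) and Tmed10 (0.957). Their fitted TE rhythms were 1.38-fold to 1.70-fold with peaks between ZT16.8 and ZT17.8. Palld, with 1.70-fold at ZT17.4, encodes palladin, an actin-associated protein that binds alpha-actinin. For the RNA profile of Srf the 5 most alike were 2510039O18Rik (r = 0.949), Wdr13 (0.937), Slc25a44 (0.934), Cops7a (0.932) and Ndufs7 (0.918), while no member exceeded the 0.497 of Cfl1. These coefficients are descriptions over 12 points from shared libraries.

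The other genes of actin dynamics were taken from a list of 104, of which 95 were tested. In TE, 8 of the 95 were higher and 2 lower at night, beside 5.59% and 3.96% of all genes, with a median difference of 0.00 over the list and -0.01 over all genes. Called 24-h rhythms numbered 15 in TE, 27 in RPF-seq and 45 in RNA-seq, which is 15.8%, 28.4% and 47.4% of the list. These shares lie near those of all genes, 17.1%, 30.9% and 48.6%. Under the 1.5-fold requirement 3, 6 and 8 of the 95 remained, beside 3.74%, 7.58% and 10.2% of all genes. Between night and day, RNA of 6 of the 95 genes was higher and of 21 lower, where 13.0% and 16.4% of all genes were, and RPF of 1 was higher and of 11 lower, where 6.79% and 8.71% of all genes were.

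By group, TE differences between night and day included 3 of 9 myosin II genes, 2 of 8 Arp2/3 subunits, 2 of 13 tropomyosins and crosslinkers, and 1 each of the capping and severing genes and the nucleation promoters and formins. Capzb, the beta subunit of the protein that caps filament ends, had the largest of these TE rhythms at night, 1.64-fold with a peak at ZT17.8 (adjusted p = 0.000500). Like Actn4 it combined this with an RNA rhythm in the light phase, 1.65-fold with a peak at ZT5.75 (adjusted p = 5.16e-07), and a level RPF profile of 1.01-fold (adjusted p = 0.941).

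Myosin II heavy chains are the motors that pull on actin filaments. TE of Myh9 had a 1.43-fold rhythm with a peak at ZT18.5 (adjusted p = 0.000478) and that of Myh14 a 1.41-fold rhythm with a peak at ZT19.5 (adjusted p = 0.00200), while their RNA peaked at ZT7.02 and ZT8.78. Their RPF rhythms were 1.07-fold (adjusted p = 0.475) and 1.27-fold (adjusted p = 0.0459). A smaller TE rhythm in the dark phase was that of Actr2, an Arp2/3 subunit, with 1.31-fold at ZT15.6. Of the called TE rhythms, 3 peaked shortly after lights-on. Evl and Vasp, related proteins that promote filament elongation at adhesion sites, had 1.80-fold at ZT0.553 and 1.30-fold at ZT2.24, and the immediate early gene Junb had 1.54-fold at ZT1.32.

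Among genes known as Srf targets, 5 of 12 had a called RNA rhythm and 4 of 12 a called RPF rhythm, beside 48.6% and 30.9% of all genes. Ccn2, a matricellular growth factor gene, peaked at ZT14.6 in RNA-seq (1.80-fold, adjusted p = 6.67e-06) and at ZT14.5 in RPF-seq (2.13-fold, adjusted p = 5.58e-06), within 2 h of the RNA peak of Srf. The other called RNA rhythms of the group peaked at other hours, Fhl2 at ZT20.4 and Tagln at ZT22.1 among them. Junb peaked at ZT9.05 in RNA-seq with 1.76-fold and at ZT5.99 in RPF-seq with 1.72-fold, and Cnn1, a smooth muscle gene at a mean of only 0.814 RPKM, peaked at ZT4.48 with 2.97-fold. Outside that group, RNA rhythms of at least 1.5-fold were those of Myh14 (1.71-fold) and Capzb, given above, of the bundling protein gene Fscn1 (2.03-fold, ZT6.07), of Tmsb10, which sequesters monomers (1.84-fold, ZT3.37), and of the myosin gene Myh10 (1.52-fold, ZT5.96). Fscn1 was also rhythmic in RPF-seq, 1.77-fold at ZT7.27, as was Elk1, a cofactor of Srf, with 2.12-fold at ZT4.71 at a mean of 0.812 RPKM.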

How the data were processed

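RNA-seq and RPF-seq libraries of 24 kidney pools were analysed, 2 pools of 2 mice at each of 12 timepoints. The authors trimmed reads with Cutadapt, selected fragments by size, mapped them sequentially with Bowtie2 2.2.1 and TopHat2 2.0.11 (GRCm38), took transcript models from Cufflinks 2.2.1, counted reads on coding sequences, normalised libraries by upper quantiles with edgeR, and deposited the resulting RPKM of each gene, without genes under a cutoff. Changes in total mRNA per cell are therefore not visible. Gene symbols, coordinates and coding sequences were taken from GENCODE vM21.

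Genes with a median of at least 0.5 RPKM in both assays were tested on log2(RPKM + 0.1), a scale on which changes of low genes are understated, with limma 3.58.1 in R 4.3.3 (eBayes with trend). Rhythms were tested by the F test of 24-h cosine and sine terms over 24 pools, and night against day by the moderated t statistic of 10 against 10 pools, with Benjamini-Hochberg adjustment over 11863 genes and a threshold of 0.05. TE was tested on the log2 ratio within a pool, since both libraries came from 1 lysate. Levels were compared by 100000 sign flips in Python 3.11.15 (numpy 2.4.6, pandas 2.3.3). The fits were tested on simulated data. Counting errors cover counting only.

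Members and lists were chosen with earlier results of these data known. Named were all members, the listed genes with called rhythms of at least 1.5-fold (if fewer than 4, those called without it, at most 8 per assay by fold), and the 5 genes most like Actg1 in TE and Srf in RNA. Genes named for other tests are from the same list and were chosen after their values were seen. The alternatives were pseudocounts of 1 and 0.01, other RPKM minima, quantile normalisation, a replicate block, 12-h terms, other night and day limits, no pairing within pools, and leaving out libraries. The liver libraries were not analysed here, and the results of some listed genes are not reported here.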

Additional observations from a re-analysis of the deposited data

Results flagged for a closer look

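Dixon's criterion was applied to the 10 day and the 10 night pools of each gene and measure, 60 groups in all, of which 3 held a pool far from the others. Chance alone marks about 1 in 20 such groups. Actb RNA was 840.3 RPKM at ZT10 in replicate 2, where the next lowest day pool had 1173 RPKM. Acta2 RPF was 107.2 RPKM at ZT16 in replicate 2, where the next highest night pool had 62.14 RPKM, and in the same library Cfl1 RPF was 272.2 RPKM against 216.9 RPKM in the next.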

How the results depend on the processing

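Of 864 alternative values, 800 kept their direction and their side of the threshold, or moved by less than the spread, 25 dropped below it, 6 rose above it, 33 moved further and 0 changed direction after a call. Most losses came from halving the data. With 1 replicate series left out, the members called ranged from 0 to 2 for RNA rhythm (2 with all libraries), 0 to 1 for RNA night against day (1), 0 to 0 for RPF rhythm, RPF night against day (1 each), TE rhythm (1) and TE night against day (2), and the list genes from 7 to 30 in RNA rhythm (45), 2 to 15 in RPF rhythm (27), 0 to 0 in TE rhythm (15) and 0 to 1 in TE night against day (10). These fits have 12 pools or fewer, and the cause was not tested further. TE rhythm called 2 members with an RPKM minimum of 2, adding Actn1. TE night against day called 1 member with quantile normalisation and 1 without pairing of libraries within pools, losing Actn1, and without pairing the list gave 7 TE rhythms. RPF night against day called 0 members with quantile normalisation and 0 with night as ZT12 to ZT22 and day as ZT00 to ZT10. The RPF fold of Actg1, a description, was 1.41 with quantile normalisation.

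Replicate differences at different timepoints correlated by 0.0291 (RNA-seq), 0.0197 (RPF-seq) and 0.0358 (TE) on average, so replicate numbers were not taken to link samples across timepoints. Single pairs of timepoints reached 0.48, 0.19 and 0.34, and 13, 10 and 12 of 66 pairs lay above 0.1. Batches shared by some timepoints were not tested. With the replicate block, members called were 2 for RNA rhythm, 1 for RNA night against day, 1 for RPF rhythm, 1 for RPF night against day, 1 for TE rhythm and 1 for TE night against day (Actn4, while Actn1 was lost with an adjusted p of 0.0536), and list genes 46, 27, 16 and 10.

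Settings that left out pools standing apart were chosen after seeing the data. Without the ZT10 and ZT12 replicate 2 pools, members called were 4 in RNA rhythm, 2 in TE rhythm, 3 in TE night against day and 0 in RPF night against day. Without the ZT02 replicate 1, ZT04 replicate 1 and ZT16 replicate 2 pools there was 1 in RNA rhythm and 1 in TE night against day. Without the ZT04 replicate 2 pool there were 0 in RPF rhythm, 0 in RPF night against day and 1 in TE night against day. Depth limited Srf most, with a counting error of up to 11.3%.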
